A study of Mus musculus with 22 samples.

Results

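The relaxin system examined here comprises 5 genes, the receptors *Rxfp1*, *Rxfp2* and *Rxfp3* and the ligands *Rln1* and *Rln3*. They were taken by Ensembl gene identifier from the 39179 genes counted in each of 22 mouse RNA-seq samples. The group was chosen by the counts of *Rxfp1*, which differed between *Phf8* knockout (KO) and wild type (WT) in opposite directions in 2 brain regions, so the KO against WT values of its members in those regions are given as a description, with no test.

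RNA was sequenced from prefrontal cortex (PFC) and ventral striatum (STR), with 3 WT and 3 KO samples of each region, and from neural progenitor cells (NPCs, 3 WT and 3 KO) and embryonic stem cells (ESCs, 2 WT and 2 KO). All samples were labelled with the strain background B6x129SvJ, while the study's methods name a mixed background of C57B6 and a substrain spelled SvJae in place of SvJ, and the brain tissue came from mice aged 2 months. The KO allele of the X-linked *Phf8* gene, which encodes a histone demethylase, lacks exons for part of the catalytic JmjC domain after Cre recombination in clonally expanded ESCs. The NPCs came from E16.5 embryos and were grown in monolayer, and the ESCs came from blastocyst outgrowths and were kept on gelatin or feeders. The sources used here do not state whether samples of 1 group came from separate animals or cultures, so p-values measure only the spread between these samples.

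RXFP1 is the receptor for relaxin. It is a G protein-coupled receptor with a large leucine-rich repeat ectodomain, like its close relative RXFP2, and both couple to G proteins that act on adenylyl cyclase and cyclic AMP. RXFP3 is a peptide receptor of a different structural class that is activated by relaxin-3, the product of *Rln3*, and that lowers cyclic AMP. In the brain, *Rxfp1* is known from the neocortex, *Rxfp3* from the hypothalamus and septum, and *Rln3* from a small cell group of the pons, whereas *Rln1* encodes the relaxin of pregnancy in mice.

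Total counts per sample were 5898286 to 10148073 in brain and 11455757 to 15539811 in the cultures. Levels are given as CPM, the counts divided by library totals that were adjusted by the TMM method over the 22 samples. *Phf8* was lower in every KO sample than in every WT sample of its tissue, at 14.6 to 20.7 against 38.4 to 46.3 CPM in PFC, 13.4 to 20.2 against 43.5 to 49.8 in STR, 14.8 to 16.4 against 41.0 to 43.5 in NPCs and 16.2 to 22.2 against 62.7 to 70.3 in ESCs. All 8 listed markers of striatal projection neurons were lower in PFC than in STR (edgeR FDR under 0.05), where 39.8% of 16028 genes were called. *Pou5f1* was at 834 to 994 CPM in ESCs and 1.43 to 2.79 CPM in NPCs, and *Nes* was at 19.2 to 54.7 and 463 to 601 CPM. The 4 pluripotent markers summed to 2375 to 2739 CPM in ESCs and 620 to 762 CPM in NPCs. The 5 neural progenitor markers summed to 231 and 237 CPM in WT and KO ESC replicate 1 and 1318 and 1480 CPM in replicate 2. In NPCs they summed to 5028 to 7720 CPM. Oligodendrocyte markers summed to 219 and 412 CPM in WT and KO NPC replicate 2, against 1886 to 3135 CPM in the other NPCs. STR KO replicate 1 stood apart from the other STR samples. Its 10 hypothalamic markers summed to 229 CPM, against 31.1 and 40.9 in the other STR KO samples and 16.0 to 19.6 in STR WT. Its 8 markers of cortical projection neurons summed to 235 CPM, against 520 to 679 in the other 5 STR samples. The other STR KO samples also lay above every STR WT sample in the hypothalamic sum, so leaving out replicate 1 does not remove this difference. The study could not reproduce striatal differences in *Oxt* and *Avp* by qRT-PCR in further mice. It proposes that some striatal differences came from hypothalamic contamination. The part of this in the STR values here was not tested.

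*Rxfp1* (ENSMUSG00000034009) lies on the minus strand of chromosome 3 of GRCm38 from 79641611 to 79737880. In PFC it was counted 310, 394 and 267 times in the WT samples and 522, 497 and 478 times in the KO samples. These counts corresponded to 34.3, 34.5 and 41.7 CPM in WT and 59.3, 54.6 and 58.5 CPM in KO, so that every KO sample was above every WT sample. The WT mean of 36.8 ± 4.21 CPM compared with a KO mean of 57.5 ± 2.54 CPM (SD, n = 3 each), a 1.56-fold higher level in KO. The edgeR log2 fold change was 0.64 (SE 0.10). Of 15364 genes tested in PFC, 8.72% had every KO sample above every WT sample, and 0.163% were called higher in KO at an FDR under 0.05. Nothing is read from these shares for *Rxfp1*, because this contrast was among those that chose it.

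In STR the order of the genotypes was the opposite. *Rxfp1* was counted 74, 85 and 64 times in WT and 29, 28 and 31 times in KO, or 7.42, 9.87 and 7.68 CPM and 3.22, 3.09 and 3.92 CPM. All 3 KO samples were below all 3 WT samples. The WT mean of 8.32 ± 1.34 CPM compared with a KO mean of 3.41 ± 0.448 CPM (SD, n = 3 each), a 2.44-fold lower level in KO. The log2 fold change was -1.28 (SE 0.21). In this region 6.69% of 15476 genes had every KO sample below every WT sample, and the edgeR test called 0 genes at an FDR under 0.05, while 878 genes were higher and 468 lower at an unadjusted p under 0.05. DESeq2 called 38 genes higher and 15 lower in STR KO.

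The KO effect on *Rxfp1* in PFC minus that in STR was 1.94 on the log2 scale (SE 0.20). Of 16028 genes tested over the brain samples, 37 genes, or 0.231%, had KO samples wholly above WT in PFC and wholly below WT in STR. The reverse arrangement was found for 33 genes, or 0.206%. *Rxfp1* belongs to the 37 genes by the rule that chose it. Without STR KO replicate 1 the log2 fold change in STR was -1.25 (SE 0.25) and the difference between regions was 1.89 (SE 0.23).

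**Figure D1:**
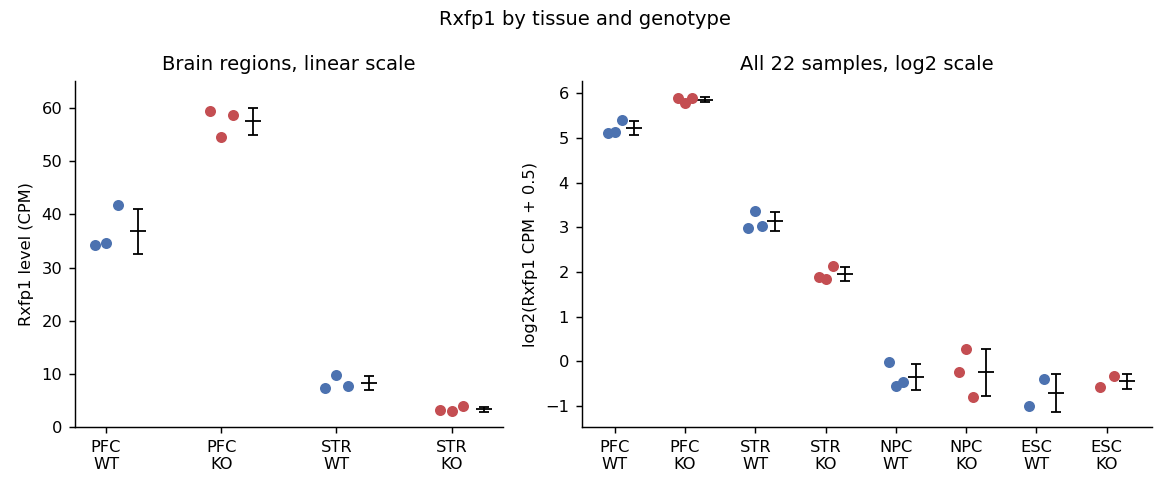
*Rxfp1* in single samples (points) with group means and SDs (black bars), WT in blue and KO in red, as CPM in the brain groups (left) and as log2(CPM + 0.5) in all 8 groups (right). The KO samples lie above the WT samples in PFC and below them in STR, and NPCs and ESCs are at the bottom of the range.

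Of 12 lists of cell type markers, 7 had summed levels that did not overlap between genotypes in PFC and 5 in STR, and 3 did not overlap in both regions. Among single genes, 8.72% were wholly higher in PFC KO, and 6.49% wholly higher and 6.69% wholly lower in STR KO. Opposite arrangements in the 2 regions were found for 0.231% and 0.206% of genes. A list sums several genes, so these shares are no direct background for lists, and nothing is read from the counts. The list of layer 6b and claustrum neurons took the same directions as *Rxfp1*, with sums of 323 to 351 CPM in PFC WT and 364 to 386 CPM in PFC KO, and of 481 to 515 CPM in STR WT and 390 to 438 CPM in STR KO. In PFC, 6 of its 10 tested members were higher in KO by sign and 1 was called, where 0.638% of all genes were called. The called member was *Gnb4*, which encodes a G protein beta subunit (log2 fold change 0.55, SE 0.10, edgeR FDR 0.0341). In STR, 8 of 9 tested members were lower in KO by sign and 0 were called, with a median log2 fold change of -0.38 against 0.00 over all genes tested. The lowest value among them was that of *Cplx3*, a synaptic complexin (log2 fold change -1.55, SE 0.33, edgeR FDR 0.397), which was at 13.9 to 26.6 CPM in STR WT and 3.99 to 9.17 CPM in STR KO. Between regions this list did not go with *Rxfp1*, since its sums were lower in PFC. Of its 10 members, 3 were higher and 5 lower in PFC (edgeR FDR under 0.05), where 39.8% of 16028 genes were called.

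The lists of astrocytes and of pluripotent cells took the opposite directions to *Rxfp1*. The 4 astrocyte markers summed to 674 to 703 CPM in PFC WT and 599 to 629 CPM in PFC KO, and to 587 to 612 CPM in STR WT and 619 to 664 CPM in STR KO. Of these, *Gfap*, an intermediate filament protein, was called lower in PFC KO (log2 fold change -0.49, SE 0.07, edgeR FDR 0.0114), and 0 were called in STR. The 4 markers of pluripotent cells summed to 55.1 to 59.3 CPM in PFC WT, 51.9 to 53.9 CPM in PFC KO, 60.4 to 69.4 CPM in STR WT and 71.3 to 79.1 CPM in STR KO. Only 1 of these 4, *Sox2*, passed the expression filter in either region. It was not called in PFC (log2 fold change -0.15, SE 0.08, edgeR FDR 0.543) or in STR (0.19, SE 0.08, edgeR FDR 0.561). In PFC alone, the sums of striatal projection neuron markers were higher in KO (219 to 232 CPM in WT and 233 to 248 CPM in KO), and those of oligodendrocytes and neural progenitors were lower. The sum of the 5 brainstem markers was also lower, but was low in both genotypes, at 1.87 to 2.45 CPM in WT and 0.454 to 1.22 CPM in KO. Only 1 of them, *Tph2*, passed the filter in PFC, and it was not called (log2 fold change -1.48, SE 0.34, edgeR FDR 0.0833). In STR alone, the sums of hypothalamic and choroid plexus markers were higher in KO.

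The 8 markers of cortical projection neurons had a median log2 fold change of 0.13 in PFC and -0.53 in STR, with 0 called in either region. Their sums overlapped between genotypes in both regions, at 1016 to 1206 CPM in PFC WT, 1161 to 1244 CPM in PFC KO, 531 to 679 CPM in STR WT and 235 to 614 CPM in STR KO. Among the oligodendrocyte markers, all 6 were lower in PFC KO by sign and 3 were called, where 0.638% of all genes were called. Those called were *Mog*, *Mag* and *Mobp* (log2 fold changes of -0.95, -0.60 and -0.59, edgeR FDR 0.00369, 0.0240 and 0.0258). The part of these marker differences in the *Rxfp1* values was not tested, and in bulk tissue fewer cells of a type and less RNA per cell cannot be told apart.

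**Figure D2:**
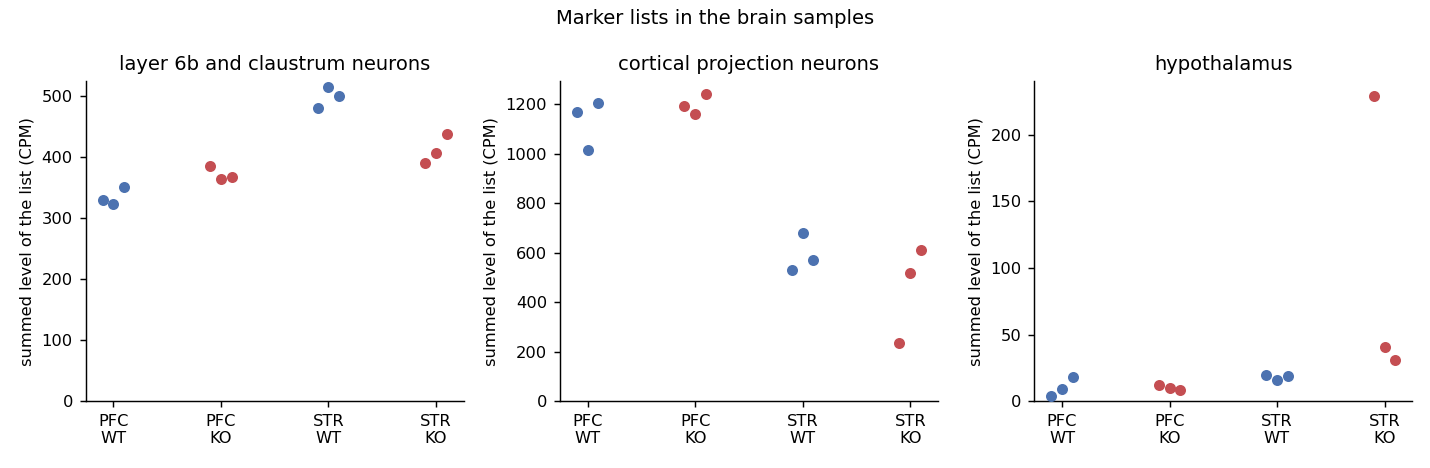
Summed CPM of 3 marker lists in each brain sample (points, WT in blue and KO in red), for layer 6b and claustrum neurons (10 genes), cortical projection neurons (8 genes) and hypothalamus (10 genes). The first list is separated by genotype in both regions, and the hypothalamic sum of 1 STR KO sample reaches 229 CPM.

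Between regions, which the choice of the gene did not use, *Rxfp1* was far higher in PFC. The lowest PFC sample had 34.3 CPM and the highest STR sample 9.87 CPM, and the mean over genotypes was 8.04-fold higher in PFC. The log2 fold change of PFC against STR was 3.09 (SE 0.10, edgeR FDR 4.2e-12, n = 6 samples a region), where 39.8% of 16028 genes passed the same test. All 6 PFC samples were above all 6 STR samples, and 21.7% of genes had regions that did not overlap in either direction. The ratio of the means was 4.43 in WT and 16.8 in KO.

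In the cultures *Rxfp1* was close to the limit of counting. It was counted 6, 2 and 3 times in WT NPCs and 4, 9 and 1 times in KO NPCs, and 0 and 3 times in WT ESCs and 2 and 3 times in KO ESCs. The means were 0.341 ± 0.232 CPM (SD, n = 6) in NPCs and 0.182 ± 0.131 CPM (SD, n = 4) in ESCs. From high to low, the order of the 8 group means was PFC KO, PFC WT, STR WT, STR KO, NPC KO, NPC WT, ESC KO and ESC WT. Neighbours in this order did not overlap down to STR KO against NPC KO, whereas each culture group overlapped the next. A difference between genotypes in the cultures was not detectable at this depth, since *Rxfp1* did not pass the expression filter there.

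A sense intronic transcript, *Gm26984* (chromosome 3, 79673367 to 79676876, minus strand), is annotated within *Rxfp1*. It was counted 6, 13 and 8 times in PFC WT and 6, 9 and 10 times in PFC KO, and at most 4 times in any STR sample. Its counts in PFC did not separate the genotypes (log2 fold change -0.08, SE 0.40, edgeR FDR 0.974).

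Because the mice were of mixed background, the genes around *Rxfp1* were examined. The tables list 20 annotated genes that start within 1 Mb of its start. Of these, 10 were tested in PFC and 8 in STR, and 0 were called in either region by edgeR (0.638% and 0.0% of all genes were called). The log2 fold changes lay between -0.21 and 0.26 in PFC and between -0.61 and 0.12 in STR. The nearest tested protein-coding genes on either side, by their starts, were *Etfdh*, for a mitochondrial electron transfer dehydrogenase, and *Tmem144*. Their log2 fold changes were 0.09 (SE 0.09) and -0.21 (SE 0.15) in PFC and 0.10 (SE 0.08) and -0.02 (SE 0.26) in STR. The lowest value in STR was that of *Fam198b*, 147 kb from the start of *Rxfp1*, with 0.24 (SE 0.15, edgeR FDR 0.652) in PFC and -0.61 (SE 0.37, edgeR FDR 0.715) in STR.

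**Figure D3:**
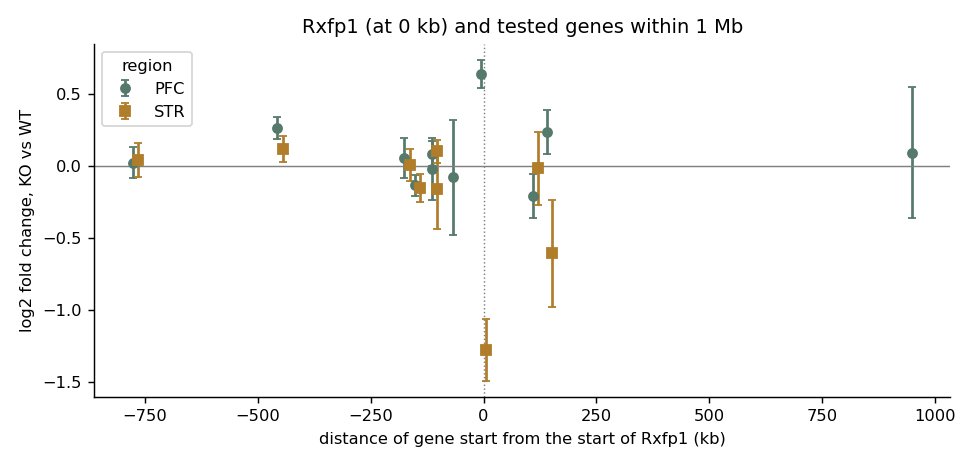
Log2 fold change of KO against WT (points) with SE (bars) for *Rxfp1* at 0 kb and for the tested genes within 1 Mb, by distance of the gene start in kb, in PFC (green circles) and STR (ochre squares). The neighbours lie between -0.61 and 0.26, and *Rxfp1* lies at 0.64 and -1.28.

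Over the 12 brain samples, the gene whose level most resembled that of *Rxfp1* on the log2(CPM + 0.5) scale by Pearson's r was *Syt7*, which encodes a calcium sensor of vesicle exocytosis (r = 0.991). By Spearman's rho *Syt7* ranked 13 with 0.944, and the highest rho of any gene was 0.993. *Poln*, for a DNA polymerase, followed with r = 0.9899, and then *Pamr1*, *Itprid1* and *Sowahb* with r = 0.988, 0.984 and 0.983. *Pamr1* ranked 637 by rho, with 0.839. The lowest values were those of *AI606473* (r = -0.985), the homeobox gene *Gbx2* (r = -0.985) and *Apeh*, for an acylpeptide hydrolase (r = -0.984). These are descriptions over 16027 other genes, and the samples form separate clusters by region, so that the difference between regions enters every value. *Syt7* showed the same order of groups with smaller steps, at 326 ± 7.20 CPM in PFC WT, 354 ± 6.46 in PFC KO, 248 ± 8.02 in STR WT and 223 ± 9.24 in STR KO (SD, n = 3 each).

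*Rxfp2* (ENSMUSG00000053368, chromosome 5, 150018675 to 150082184, plus strand), the receptor for insulin-like peptide 3, was likewise higher in PFC than in STR. It was counted 58, 61 and 37 times in PFC WT and 46, 54 and 24 times in PFC KO, against 6, 5 and 3 times in STR WT and 26, 9 and 8 times in STR KO. All PFC samples, at 2.94 to 6.41 CPM, were above all STR samples, at 0.360 to 2.88 CPM. The log2 fold change of PFC against STR was 2.46 (SE 0.29, edgeR FDR 6.2e-06, n = 6 samples a region), and *Rxfp2* passed the filter of that fit only through the PFC samples.

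Between genotypes, *Rxfp2* overlapped in PFC, with means of 5.85 ± 0.538 CPM in WT and 4.70 ± 1.56 CPM in KO (SD, n = 3). In STR the 3 KO samples, at 2.88, 0.994 and 1.01 CPM, were above the 3 WT samples, at 0.602, 0.580 and 0.360 CPM, where 6.49% of the genes tested were arranged in this way. *Rxfp2* itself did not pass the filter in the STR fit. The highest of these samples was STR KO replicate 1, the library with the high hypothalamic sum. The ratio of the KO to the WT mean was 3.17 with this library and 1.95 without it. The part of the hypothalamic difference in these values was not tested. In NPCs *Rxfp2* was counted 0 times in all 3 WT samples, which allows up to 0.0723 CPM by a limit of 3 counts, and 1 time in all KO samples together. The ESC counts were 1 and 0 in WT and 7 and 1 in KO. *Rxfp2* overlaps 2 annotated transcripts, of which *Gm42557* is antisense, and the strand setting of the brain counting is not given in the sources used here.

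*Rxfp3* (ENSMUSG00000060735, chromosome 15, 11033717 to 11037991, minus strand), the receptor of relaxin-3, was detected in both regions. It was counted 50, 34 and 24 times in PFC WT and 31, 38 and 39 times in PFC KO. The STR counts were 35, 43 and 48 in WT and 117, 50 and 60 in KO. The PFC samples, at 2.98 to 5.53 CPM, overlapped the STR samples, at 3.51 to 13.0 CPM. The log2 fold change of PFC against STR was -0.66 (SE 0.23, edgeR FDR 0.0300, n = 6 samples a region).

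This call was lost when any of 7 libraries was left out, among them STR KO replicate 1, without which the log2 fold change was -0.45 (SE 0.19, FDR 0.0806). The others were STR WT replicates 2 and 3, PFC WT replicates 2 and 3 and PFC KO replicates 1 and 2, with FDR from 0.0542 to 0.0773. Between genotypes, *Rxfp3* had a mean of 4.09 ± 1.31 CPM in WT and 4.16 ± 0.627 CPM in KO in PFC (SD, n = 3), with a log2 fold change of 0.02 (SE 0.26). In STR the means were 4.75 ± 1.14 and 8.70 ± 3.85 CPM (SD, n = 3), with a log2 fold change of 0.89 (SE 0.33) and overlapping groups. Without STR KO replicate 1, which had 13.0 CPM, the log2 fold change was 0.47 (SE 0.28). In KO NPCs *Rxfp3* was counted 0 times in every sample, which allows up to 0.0721 CPM, and the other culture samples had at most 4 counts.

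The 2 ligand genes were at low counts in the brain. Their promoters are shown because both ligands, and neither of the receptors *Rxfp2* and *Rxfp3*, hold the TATA box motif TATAAA in the 250 bases before the start that RefSeq annotates on GRCm38.p6. Capitals mark the motif, and the bases run 5′ to 3′ on the strand of the gene. *Rln1* is chr19:29334671-29334920 on the minus strand and *Rln3* is chr8:84044980-84045229 on the minus strand.
Rln1: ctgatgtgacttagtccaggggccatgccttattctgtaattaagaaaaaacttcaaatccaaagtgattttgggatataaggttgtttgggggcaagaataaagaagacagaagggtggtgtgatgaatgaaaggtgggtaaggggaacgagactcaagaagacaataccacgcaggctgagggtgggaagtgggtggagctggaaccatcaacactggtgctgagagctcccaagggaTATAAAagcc
Rln3: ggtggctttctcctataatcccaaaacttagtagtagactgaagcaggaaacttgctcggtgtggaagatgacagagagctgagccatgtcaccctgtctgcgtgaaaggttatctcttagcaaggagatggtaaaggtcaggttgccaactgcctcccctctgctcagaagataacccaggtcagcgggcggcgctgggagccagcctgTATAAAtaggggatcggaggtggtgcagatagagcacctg
The first base of the motif lies 10 bases before the start in *Rln1* and 40 bases before it in *Rln3*. The same letters occur on either strand in 12.4% of 32851 mouse promoters of this length. The count of CG dinucleotides was 2 in *Rln1*, 6 in *Rln3*, 3 in *Rxfp2* and 2 in *Rxfp3*, against a median of 6 over all promoters. A match of letters is a description of the sequence only.

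*Rln1* (ENSMUSG00000039097, chromosome 19, 29331170 to 29334670, minus strand) was higher in STR than in PFC. It was counted 14, 16 and 19 times in STR WT and 13, 10 and 12 times in STR KO, against 3, 0 and 4 times in PFC WT and 8, 6 and 5 times in PFC KO. Every STR sample, at 1.10 to 2.28 CPM, was above every PFC sample, at 0.00 to 0.909 CPM, as for 9.76% of genes in this direction. The log2 fold change of PFC against STR was -1.82 (SE 0.37, edgeR FDR 0.00119, n = 6 samples a region), and *Rln1* passed the filter of that fit only through the STR samples.

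Between genotypes *Rln1* overlapped in both regions. The means in PFC were 0.319 ± 0.312 CPM in WT and 0.727 ± 0.160 CPM in KO, and in STR they were 1.85 ± 0.438 and 1.36 ± 0.220 CPM (SD, n = 3 each). The cultures had 4 to 13 counts per sample. NPCs and ESCs had 0.624 ± 0.218 (SD, n = 6) and 0.747 ± 0.377 CPM (SD, n = 4), and a difference was not detected (log2 fold change of NPC against ESC -0.12, SE 0.36, edgeR FDR 0.772). Both KO ESC samples, with 8 and 13 counts, were above both WT samples, with 4 and 7 counts, an arrangement found for 11.5% of genes tested in ESCs.

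*Rln3* (ENSMUSG00000045232, chromosome 8, 84042929 to 84045000, minus strand) had its highest level in ESCs. It was counted 48 and 37 times in WT ESCs and 44 and 22 times in KO ESCs, at 4.82, 3.17, 3.89 and 2.17 CPM. In NPCs it was counted 0, 0 and 1 times in WT and 0, 3 and 1 times in KO. All ESC samples were above all NPC samples, as for 40.6% of genes. The counts of all libraries added together were 151 in ESCs and 5 in NPCs, a ratio of 49.9 per counted read with an exact 95% interval of 20.9 to 156, which covers counting error only.

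The log2 fold change of *Rln3* in NPC against ESC was -5.63 (SE 0.57, edgeR FDR 1.9e-05), where 81.4% of 16612 genes passed the same test, and *Rln3* passed the filter only through the ESC samples. In the brain it was counted 0 to 4 times per sample, with 3 counts in all of PFC and 10 in all of STR. Within ESCs the WT and KO samples overlapped (log2 fold change of KO against WT -0.40, SE 0.41, edgeR FDR 0.999995). In this fit 0 genes, or 0.0%, passed an FDR under 0.05, 108 were higher and 63 lower at an unadjusted p under 0.05, and DESeq2 called 0 higher and 3 lower. The fit held no replicate block, although same-numbered KO and WT ESC samples deviated together (r = 0.876). More genes were called with the block, as given below.

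**Figure D4:**
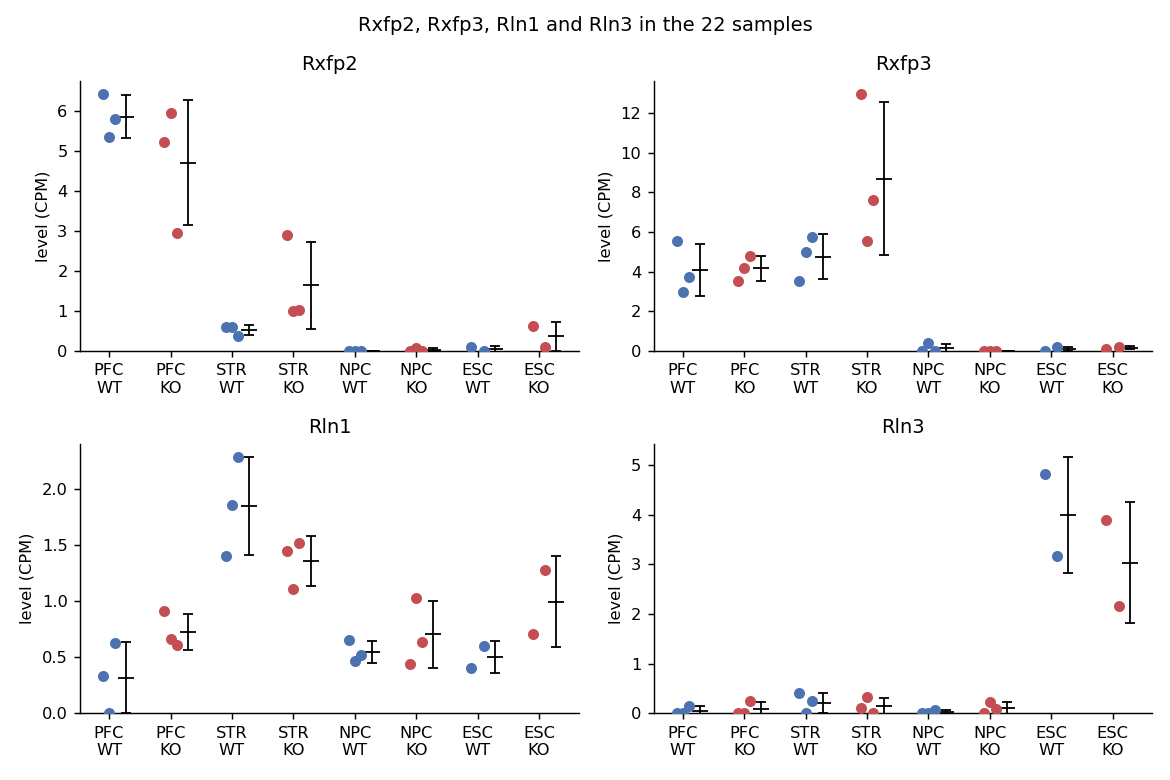
Levels of *Rxfp2*, *Rxfp3*, *Rln1* and *Rln3* in CPM in each of the 22 samples (points, WT in blue and KO in red) with group means and SDs (black bars, cut off at 0). *Rxfp2* is high in PFC, *Rxfp3* in both regions, *Rln1* in STR and *Rln3* in ESCs.

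Compared per length, as RPKM over the annotated exons, *Rxfp1* was the most abundant of the 5 genes in PFC, with 4.69 ± 1.17 RPKM (SD, n = 6). *Rxfp3* and *Rxfp2* followed there with 0.964 ± 0.215 and 0.926 ± 0.214 RPKM, which did not differ beyond their spread, and *Rln1* and *Rln3* were at 0.149 and 0.105 RPKM. In STR *Rxfp3* had the highest mean in both genotypes, with 1.11 ± 0.268 RPKM in WT and 2.04 ± 0.900 RPKM in KO (SD, n = 3), and the others are given by genotype. In STR WT they were *Rxfp1* with 0.828 ± 0.134, *Rln1* with 0.528 ± 0.125, *Rln3* with 0.337 ± 0.318 and *Rxfp2* with 0.0903 ± 0.0235 RPKM. In STR KO they were *Rln1* with 0.387 ± 0.0629, *Rxfp1* with 0.339 ± 0.0446, *Rxfp2* with 0.287 ± 0.191 and *Rln3* with 0.233 ± 0.266 RPKM. Those STR KO values did not differ beyond their spread, so no order is read from them. The *Rln3* values rested on 6 counts in STR WT and 4 in STR KO. In ESCs *Rln3* was at 5.54 ± 1.77 RPKM (SD, n = 4), and the 3 receptors were at or below 0.0359 RPKM. In NPCs the highest of the 5 was *Rln1*, with 0.178 ± 0.0623 RPKM (SD, n = 6).

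Of the 5 genes, 4 passed the filter of the regional fit, where 39.8% of all genes were called. *Rxfp1* was called higher and *Rxfp3* lower in PFC, while *Rxfp2* and *Rln1*, also called, had entered the fit only through the region where they were high, so nothing is read from the count. In the fit of NPC against ESC, where 81.4% of all genes were called, 2 passed and *Rln3*, which had entered only through ESCs, was called. None of the 5 passed in the NPC fit of KO against WT, and *Rln3* alone passed in the ESC fit.

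**Figure D5:**
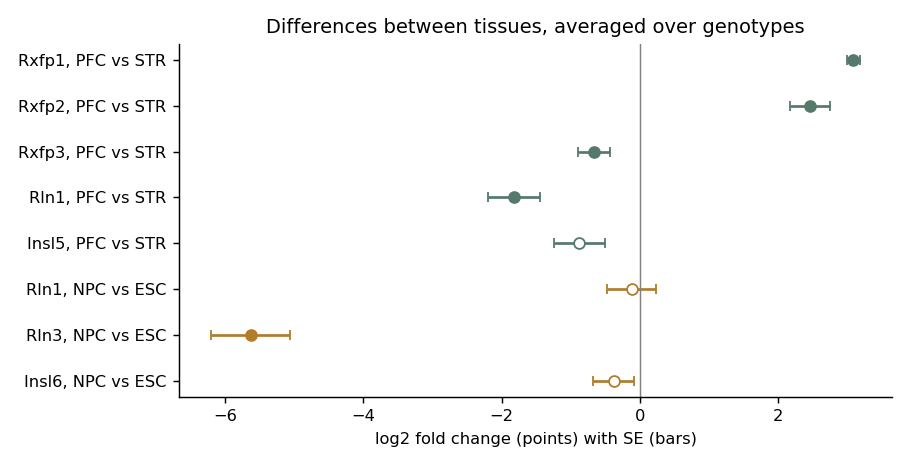
Log2 fold changes (points) with SE (bars) between tissues, averaged over genotypes, for the relaxin family genes that passed the filter, PFC against STR in green and NPC against ESC in ochre. Filled points passed an edgeR FDR under 0.05, and the values run from -5.63 for *Rln3* to 3.09 for *Rxfp1*. *Rxfp2* and *Rln1* between regions and *Rln3* between cultures entered only through the tissue where they were high.

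Other family members were not all below the 5 genes. *Rxfp4*, the receptor of insulin-like peptide 5, had 2 counts in all samples together. *Insl5*, its ligand, was at 1.30 CPM in STR and 0.733 CPM in PFC, with a log2 fold change of PFC against STR of -0.87 (SE 0.37, edgeR FDR 0.0761). Per length, *Insl5* in STR had 1.80 ± 0.837 RPKM (SD, n = 6), from 6 to 19 counts per sample.

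*Insl6*, a family member of unknown receptor, had 2.05 ± 0.936 RPKM in NPCs (SD, n = 6) and 2.63 ± 0.824 RPKM in ESCs (SD, n = 4), in NPCs above each of the 5 genes. Between NPCs and ESCs its log2 fold change was -0.38 (SE 0.29, edgeR FDR 0.255). In NPCs it was counted 10 to 13 times in WT and 17 to 30 times in KO, and every KO sample was above every WT sample in CPM, as for 3.57% of genes. Its log2 fold change of KO against WT there was 1.04 (SE 0.34) and did not pass the test (edgeR FDR 0.9998).

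Genes of the signalling route below the receptors were described from lists of 57 genes in all, comprising the other family members, related leucine-rich repeat receptors, G proteins, adenylyl cyclases, cyclic AMP targets, other effectors and matrix targets of relaxin. In PFC, 1 of 48 tested was higher in KO and 0 were lower, beside 0.638% of all genes called. This was *Adcy7*, an adenylyl cyclase (log2 fold change 0.78, SE 0.13, edgeR FDR 0.0258), and the other 8 adenylyl cyclases did not pass. The median log2 fold change over the 48 was 0.02, against -0.02 over all genes tested. In STR 0 of 52 were called, with 7 at an unadjusted p under 0.05 and a median of 0.04 against 0.00, and *Adcy7* had a log2 fold change of 0.91 (SE 0.30, edgeR FDR 0.452).

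Between regions, 15 of 52 of these genes were higher and 12 lower in PFC, beside 39.8% of all genes called in either direction. Among the leucine-rich repeat receptors, 1 of 5 tested was higher in PFC and 3 were lower, the latter led by the gonadotropin receptor *Lhcgr* (log2 fold change -5.02, SE 0.51) and the thyrotropin receptor *Tshr* (-3.01, SE 0.37). *Lhcgr* and *Tshr* did not pass the filter of the PFC fit and entered the fit between regions only through the STR samples. Nothing is therefore read from their direction. Among the adenylyl cyclases 5 of 9 were higher in PFC and 1 was lower, with *Adcy1* at 1.63 (SE 0.13) and *Adcy5* at -1.64 (SE 0.06) on the log2 scale. Of the G proteins 2 of 9 were higher and 3 lower, with the largest differences for *Gnal*, the olfactory type stimulatory alpha subunit (-1.21, SE 0.06), and *Gng2*, a gamma subunit (0.49, SE 0.07). In NPCs against ESCs, 28 of 51 were higher and 13 lower, beside 81.4% of all genes called, so that the share of these genes was near that of all genes. In the edgeR fits of KO against WT, 0 of 47 were called in NPCs and 0 of 47 in ESCs, with 2 at an unadjusted p under 0.05 in each, beside 0.00697% and 0.0% of all genes called.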

How the data were processed

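The authors sequenced TruSeq libraries, and the submitters' processing notes name CASAVA 1.7, STAR and the build mm10. The authors counted reads on Ensembl genes with HTSeq and deposited 1 table of unnormalized counts for each sample. Versions of STAR and HTSeq and the strand setting of the brain tables are not given in the sources used here. In brain samples 7.62% to 8.90% of reads were not unique, and in cultures 33.2% to 45.5%, which limits levels set across them. Groups and replicate numbers came from the sample labels.

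From the counts, CPM (TMM over 22 samples) and RPKM (exon length from GENCODE M21 on GRCm38) were computed. Differences were fitted on all genes with edgeR 4.0.16 in R 4.3.3 (TMM, expression filter, robust quasi-likelihood test, Benjamini-Hochberg FDR under 0.05, no replicate block), within each tissue and over 4 groups for PFC against STR and NPC against ESC, each tissue as the mean of its WT and KO groups. Pipelines were tested on simulated data. Alternatives were RLE factors, no filter, DESeq2 1.42.0, a log2 fold change beyond 1, each replicate left out, a replicate block, scaling to the counted total and Spearman's rho. Group means without STR KO replicate 1 were added after the data were seen.

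Replicate numbers paired PFC with STR samples (r of deviations 0.162 to 0.431 in 6 pairs) and KO with WT NPCs (0.524 to 0.705 in 3 pairs). They also paired KO with WT ESCs (0.876 for both pairs, which mirror each other in groups of 2 samples). Replicate numbers did not pair KO with WT in PFC (-0.032 to 0.055) or STR (-0.021 to 0.133). No replicates agreed within sampling noise.

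Members and lists were chosen with earlier results of these data known. Named genes are the 5 members, *Phf8*, pathway genes that were called or had the 2 largest changes in a list described, the 5 most and 3 least alike to *Rxfp1*, its neighbours within 1 Mb, and markers where their list is given. *Gm26984* and *Gm42557* were added for their overlap. Promoter sequences are from RefSeq (GRCm38.p6) and matched 4 of the 5 members.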

Additional observations from a re-analysis of the deposited data

Results flagged for a closer look

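*Rxfp1* was set apart because every KO sample was above every WT sample in PFC and every KO sample was below every WT sample in STR. The KO effect in PFC minus that in STR was 1.94 on the log2 scale (SE 0.20). This difference was not tested here, since it is the contrast that chose the gene. No other of the 5 genes had such an arrangement in any pair of tissues. Groups of 2 or 3 samples are too small for an outlier test.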

How the results depend on the processing

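With each replicate left out, the *Rxfp1* log2 fold change was 0.59 to 0.74 in PFC, -1.38 to -1.14 in STR, 1.79 to 2.04 for their difference and 3.04 to 3.16 in PFC against STR. The groups of *Rxfp1* did not overlap in these comparisons, so leaving out a sample could not turn a sign, and only the size of the values is described. *Rxfp2*, *Rln1* and *Rln3* kept their calls between tissues under every alternative. Each had entered its fit only through the tissue where it was high, so nothing is read from the kept calls. *Rxfp3* in PFC against STR ranged from -0.82 to -0.45 with a replicate left out and lost its call without 7 of 12. Leaving out replicates turned the sign of 2 log2 fold changes near 0, that of *Rln1* in NPC against ESC (-0.29 to 0.13) and that of *Rxfp3* in PFC KO against WT (-0.20 to 0.32). One fit without a replicate gave no *Rln1* value. The KO effect in PFC minus that in STR was -1.25 for *Rxfp2* without STR KO replicate 1, against -1.94, and 1.08 to 2.64 for *Rln1* with a replicate left out, lowest without PFC WT replicate 2. Scaled to the counted total, *Rxfp1* was at 62.4 CPM in PFC KO and 3.92 CPM in STR KO.

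The number of genes called, 98 in PFC, 0 in STR, 1 in NPCs, 0 in ESCs, 6374 in PFC against STR and 1 for the difference between regions, was 379, 27, 2, 0, 6470 and 2 without a filter and 182, 53, 5, 3, 6027 and 19 with DESeq2. With the replicate block it was 140, 8, 3, 513, 7421 and 12, and the block changed no call of the 5 genes. A log2 fold change beyond 1 left 18 in PFC and 1444 between regions. Without 1 replicate each it was 2 to 154 in PFC (lowest without PFC KO replicate 2, highest without PFC WT replicate 1), 0 to 2 in STR, 0 in NPCs in every case and 1 to 3 for the difference. The causes were not tested. Counts under about 10 per library limit what can be seen of *Rln1* in PFC, of *Rln3* outside ESCs and of the receptors in the cultures.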
